A study of Mus musculus with 4 samples.

Results

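Late spermatogonia of the Znhit1 knockout mouse testis at postnatal day 35 were described from 99 cell barcodes that held the homeobox transcript Esx1 and little Crabp1. A barcode was taken if it had at least 1000 UMIs (unique molecular identifiers, the tags by which captured RNA molecules were counted), at least 500 genes and at most 10% mitochondrial UMIs. It also needed at least 2 UMIs of the germ-cell genes Ddx4 and Dazl together, at least 2 of Esx1, under 3 of Crabp1 and under 4 of Stra8 and Tex15 together. Sycp1 had to be under 1000 CPM (UMIs scaled to a total of 1000000), and the sum of Zbtb16, Glis3, Trim71, Egr4, Gfra1 and Etv5 under 8 UMIs. These thresholds left 99 of 5236 germ barcodes (1.89%, Clopper-Pearson 95% interval 1.54 to 2.30), among 8121 barcodes past the filters and 15306 in the library. The members were thus chosen by measured UMI counts of the same cells that are described below. Their differences from other barcodes are therefore descriptions, and no test was made.

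Testis cells of control and Znhit1 knockout mice had been captured in droplets and sequenced from the 3' end at postnatal days 16 and 35, with 1 library for each genotype and age. ZNHIT1 belongs to the SRCAP complex, the remodeller that places the histone variant H2A.Z in chromatin. Only the day 35 knockout counts were used, and the matrices from the other 3 captures were not analysed here, so no value compares genotypes or ages. The labels name neither the driver of the deletion nor the number of animals behind the library. Barcodes of 1 library are not replicates, and the intervals below cover counting error only.

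Spermatogonia are the mitotic germ cells at the base of the seminiferous tubule. Undifferentiated spermatogonia include the stem cells. Retinoic acid starts their differentiation, after which Kit is expressed and the cells pass through several divisions. Retinoic acid later induces Stra8, and cells enter the preleptotene stage and meiotic prophase. Esx1 is an X-linked homeobox gene of placenta and male germ cells, and Crabp1 encodes a retinoic acid-binding protein. Ctnnd2 encodes delta-catenin, Elavl2 an RNA-binding protein of the ELAV family, and Ccnd1 cyclin D1, which drives cells from G1 towards S phase.

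Upstream sequences are shown for Esx1, which defines the class, for Ctnnd2, a marker that the rule did not use, and for Pou4f1, a POU transcription factor among the genes named below. Each is the 250 bases before a transcript start in RefSeq on GRCm38.p6, written 5′ to 3′ on the gene's strand. Capitals mark CANNTG, the E-box core, which basic helix-loop-helix factors such as SOHLH1 and SOHLH2 can bind. The Esx1 window is at chrX:137120327-137120576 on the minus strand, inside the GENCODE gene body (137115397 to 137122083), which extends further upstream. The Ctnnd2 window is at chr15:30172284-30172533 on the plus strand and the Pou4f1 window at chr14:104468000-104468249 on the minus strand.
Esx1: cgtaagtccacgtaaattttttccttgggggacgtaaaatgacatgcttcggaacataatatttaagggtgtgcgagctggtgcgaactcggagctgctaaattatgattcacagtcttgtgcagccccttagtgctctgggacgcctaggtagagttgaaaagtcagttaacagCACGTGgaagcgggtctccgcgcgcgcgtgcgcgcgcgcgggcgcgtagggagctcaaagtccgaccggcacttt
Ctnnd2: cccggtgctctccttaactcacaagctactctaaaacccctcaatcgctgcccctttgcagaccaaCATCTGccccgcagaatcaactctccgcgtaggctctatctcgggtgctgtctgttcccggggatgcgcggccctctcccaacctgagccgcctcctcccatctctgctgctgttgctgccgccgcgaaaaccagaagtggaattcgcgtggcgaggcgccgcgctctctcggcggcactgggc
Pou4f1: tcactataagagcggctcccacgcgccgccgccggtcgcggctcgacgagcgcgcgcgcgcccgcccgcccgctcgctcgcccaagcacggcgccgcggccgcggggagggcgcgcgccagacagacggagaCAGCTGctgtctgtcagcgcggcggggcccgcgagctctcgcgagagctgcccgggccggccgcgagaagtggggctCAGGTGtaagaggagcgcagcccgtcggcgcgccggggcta
The Esx1 window held 1 E-box, of the form CACGTG, and 54% G and C. The Ctnnd2 window held 1 and the Pou4f1 window 2, at 62.8% and 78% G and C. Of 32851 windows of the same length, 66.2% held CANNTG and 6.02% held CACGTG, both of which read alike on the other strand. A match is a description of the letters and not a binding site. Elavl2 had 6 listed starts and Ccnd1 had no entry.

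The label was checked first against pachytene genes, and by these it did not hold for 6 of the 99 barcodes. These 6 were the deepest of the class, with 21256 to 54573 UMIs, against 1717 to 14687 in the other 93. They held 222 to 1077 UMIs of a 20-gene list of pachytene spermatocytes, against 0 to 12 in the others. The cut that set the 6 apart was 100 UMIs of this list. Ldhc, the sperm lactate dehydrogenase, ranged from 88 to 421 UMIs in the 6 barcodes, and Meig1, a gene of meiosis and sperm formation, from 79 to 259. Ctnnd2, Elavl2, Ccnd1 and Crabp1 were all at 0 UMIs in the 6. They met the rule with 2 to 4 Esx1 UMIs each, a level of 75.4 CPM, below the 81.9 CPM of the other germ barcodes. The 6 barcodes held 29.1% of the UMIs of the class. Values are therefore given for all 99 barcodes (773939 UMIs, median 5599 a barcode) and for the 93 without this pachytene profile (548552 UMIs, median 5401). Marker genes of somatic cells were not part of this check, and the 93 include barcodes with many such UMIs. Among the 93, 6 held 10 or more UMIs of Leydig cell markers, up to 107. For macrophage markers, 2 held 10 or more, up to 51. These barcodes were kept in the 93, and some values without barcodes of 10 or more somatic marker UMIs are given below.

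**Figure D1:**
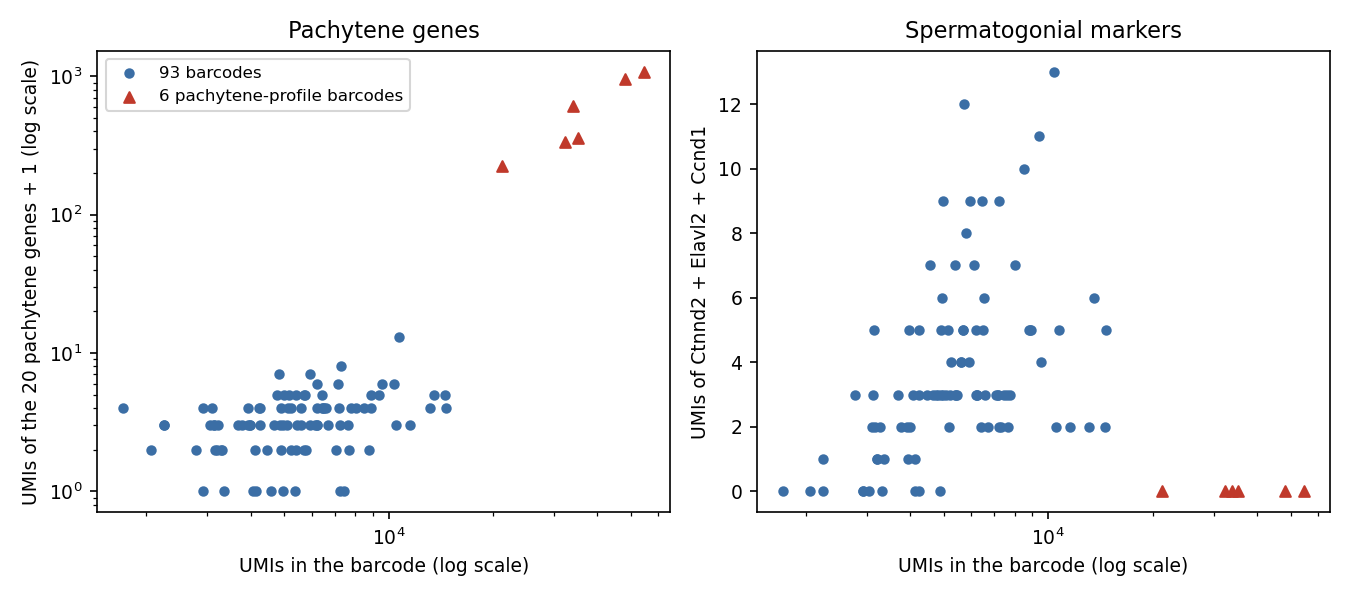
Each point is 1 of the 99 barcodes, plotted by its UMIs (log scale) against its UMIs of 20 pachytene genes plus 1 (left, log scale) and its UMIs of Ctnnd2, Elavl2 and Ccnd1 summed (right). The 6 pachytene-profile barcodes lie above 222 pachytene UMIs and at 0 spermatogonial marker UMIs, apart from the other 93.

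The other germ barcodes were sorted by the rule's own genes into neighbouring groups, taking the first that applied. The 6-gene group (189 barcodes) reached 8 UMIs over Zbtb16, Glis3, Trim71, Egr4, Gfra1 and Etv5, genes of undifferentiated spermatogonia. The Sycp1 group (3325 barcodes) reached 1000 CPM of Sycp1, a synaptonemal complex gene. The Stra8/Tex15 group (697 barcodes) held 4 or more UMIs of these genes of meiotic entry and prophase, and the Crabp1 group (85 barcodes) at least 3 of Crabp1. A further 841 germ barcodes met none of these. Barcodes with a pachytene profile were left out of the class only. The highest pachytene list count of a barcode was 1368 UMIs in the Stra8/Tex15 group and 1213 in the 6-gene group. It was 1570 in the Sycp1 group, 8 in the Crabp1 group and 12 in the 93. The part of this in the genes lower in the 93 was not tested. Median depth was 6614 UMIs in the Crabp1 group, 8331 in the Stra8/Tex15 group, 5108 in the Sycp1 group and 14033 in the 6-gene group. The rule's upper limits are in UMIs, so shallow barcodes pass them more easily. Scrublet called 6 of the 99 barcodes doublets (6.06%), against 5.88% in the Stra8/Tex15 group and 4.71% in the Crabp1 group. Of the 6, 5 were among the 39 of the 93 barcodes with 10 or more UMIs of somatic marker genes. Of the barcode sequences in this library, 203 also occurred in another library of the series, 1 of them in the class.

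Within the 93 barcodes, 49 held exactly 2 Esx1 UMIs, 26 held 3, 14 held 4, and 4 barcodes held 5 to 7. The summed level of Esx1, located at chrX:137115397-137122083, was 467 CPM (exact Poisson 95% interval 411 to 528), and it was 353 CPM over all 99. It was 137 CPM in both the Crabp1 and the Stra8/Tex15 group, 79.1 CPM in the Sycp1 group and 55 CPM in the 6-gene group. The high level in the class follows from the rule, but many barcodes of the other groups also held Esx1 UMIs, 60% of the Stra8/Tex15 group and 52.9% of the Crabp1 group. In Leydig-marked barcodes, somatic cells that should lack Esx1, 17 of 526 held at least 1 UMI (3.23%, median depth 8726 UMIs) and 0 held 2, which allows a share of up to 0.57%. Of 280 macrophage-marked barcodes with a median of 3182.5 UMIs, 1 held 2 or more. Crabp1 was at 0 UMIs in 45 of the 93, at 1 in 34 and at 2 in 14, and Stra8 plus Tex15 at 0 in 10, 1 in 24, 2 in 33 and 3 in 26.

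Values of barcodes just inside and just outside the thresholds are given as a description. The 52 barcodes of the class with 2 Esx1 UMIs had 124 CPM of Ctnnd2 and 163 CPM of Ccnd1, and the 128 barcodes that met every other condition with 1 Esx1 UMI had 69.7 and 137 CPM. Of these, 3 and 5 barcodes had the pachytene profile. The 14 barcodes with 2 Crabp1 UMIs had 268 CPM of Ccnd1, and the 7 with 3 had 261 CPM. The 26 barcodes with 3 Stra8 plus Tex15 UMIs had 328 CPM of Elavl2, and the 25 with 4 had 281 CPM. The 31 barcodes with Sycp1 less than 25% under its threshold had 629 CPM of Sycp3, a lateral element protein of the synaptonemal complex, and the 25 less than 25% over it had 826 CPM. For the 6-gene sum the nearest barcodes held 6 inside and 12 outside, 1 each. For Ddx4 plus Dazl, 2 barcodes lay inside at 2 UMIs and 3 outside at 1.

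Ctnnd2, Elavl2 and Ccnd1, the marker genes of these cells that the rule did not use, were present in most of the 93 barcodes. Ctnnd2 (chr15:30172593-31029341) was detected in 51 of 93 barcodes (54.8%, interval 44.2 to 65.2), with at most 7 UMIs. Elavl2 (chr4:91250763-91400785) and Ccnd1 (chr7:144929931-144939925) were each detected in 63 of 93 (67.7%, interval 57.3 to 77.1), with at most 6 and 9 UMIs. All 3 were detected in 25 barcodes, 2 of the 3 in 44, 1 in 14 and none in 10. The medians were 1 UMI for each gene, so the absence of a marker from a single barcode was not informative at this depth.

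The marker levels in the 93 barcodes were above those of the Sycp1 group, and their intervals overlapped those of the Crabp1 and Stra8/Tex15 groups, except that Ccnd1 was above the Stra8/Tex15 group. Ctnnd2 was at 173 CPM in the 93 barcodes (interval 140 to 212) and 123 CPM in the 99. It was at 184 CPM in the 6-gene group, 164 in the Stra8/Tex15 group, 121 in the Crabp1 group and 53.9 in the Sycp1 group. The intervals of the 93 barcodes, the 6-gene group and the Stra8/Tex15 group overlapped. Overlap of level intervals does not make 2 levels equal. In the 54 barcodes with under 10 somatic marker UMIs, Ctnnd2 was 1.72-fold above the Crabp1 group chosen alike (ratio interval 1.08 to 2.79). The ratio intervals of Elavl2 (0.973 to 2.21) and Ccnd1 (0.804 to 1.70) in that comparison included 1. Elavl2 was at 228 CPM in the 93 (190 to 272) and 162 CPM in the 99, against 226 in the Stra8/Tex15 group, 177 in the Crabp1 group, 126 in the Sycp1 group and 124 in the 6-gene group. Ccnd1 was at 222 CPM in the 93 (185 to 266) and 158 CPM in the 99, against 215 in the Crabp1 group, 173 in the Stra8/Tex15 group (163 to 184), 75.9 in the 6-gene group and 45.7 in the Sycp1 group. Ccnd1 was thus higher in the class and both neighbours than in the 6-gene and Sycp1 groups.

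Against all 5137 other germ barcodes the ratios for the 93 were 2.11 for Ctnnd2 (interval 1.70 to 2.58), 1.66 for Elavl2 (1.38 to 1.99) and 2.94 for Ccnd1. In the 54 barcodes with under 10 somatic marker UMIs, against other germ barcodes chosen alike, the Elavl2 ratio was 1.26, and its interval (0.969 to 1.62) included 1. For all 99 they were 1.49, 1.18 and 2.08, and the interval for Elavl2 (0.98 to 1.41) included 1. With such barcodes left out of the comparator alone, the Elavl2 ratio of the 99 was 0.87. Each barcode was then thinned to 3000 UMIs, which left out 7 of the 93, 5 of the Crabp1 group, 25 of the Stra8/Tex15 group and 288 of the Sycp1 group. Thinned Ccnd1 was detected in 48.1% of the class, 46.7% of the Crabp1 group, 36.3% of the Stra8/Tex15 group and 10.9% of the Sycp1 group, against 67.7%, 71.8%, 62.6% and 17.2% before thinning. Thinned Ctnnd2 was detected in 37.3%, 27.8%, 34.5% and 11.2% of these groups (54.8%, 44.7%, 59.5% and 16.5% before).

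**Figure D2:**
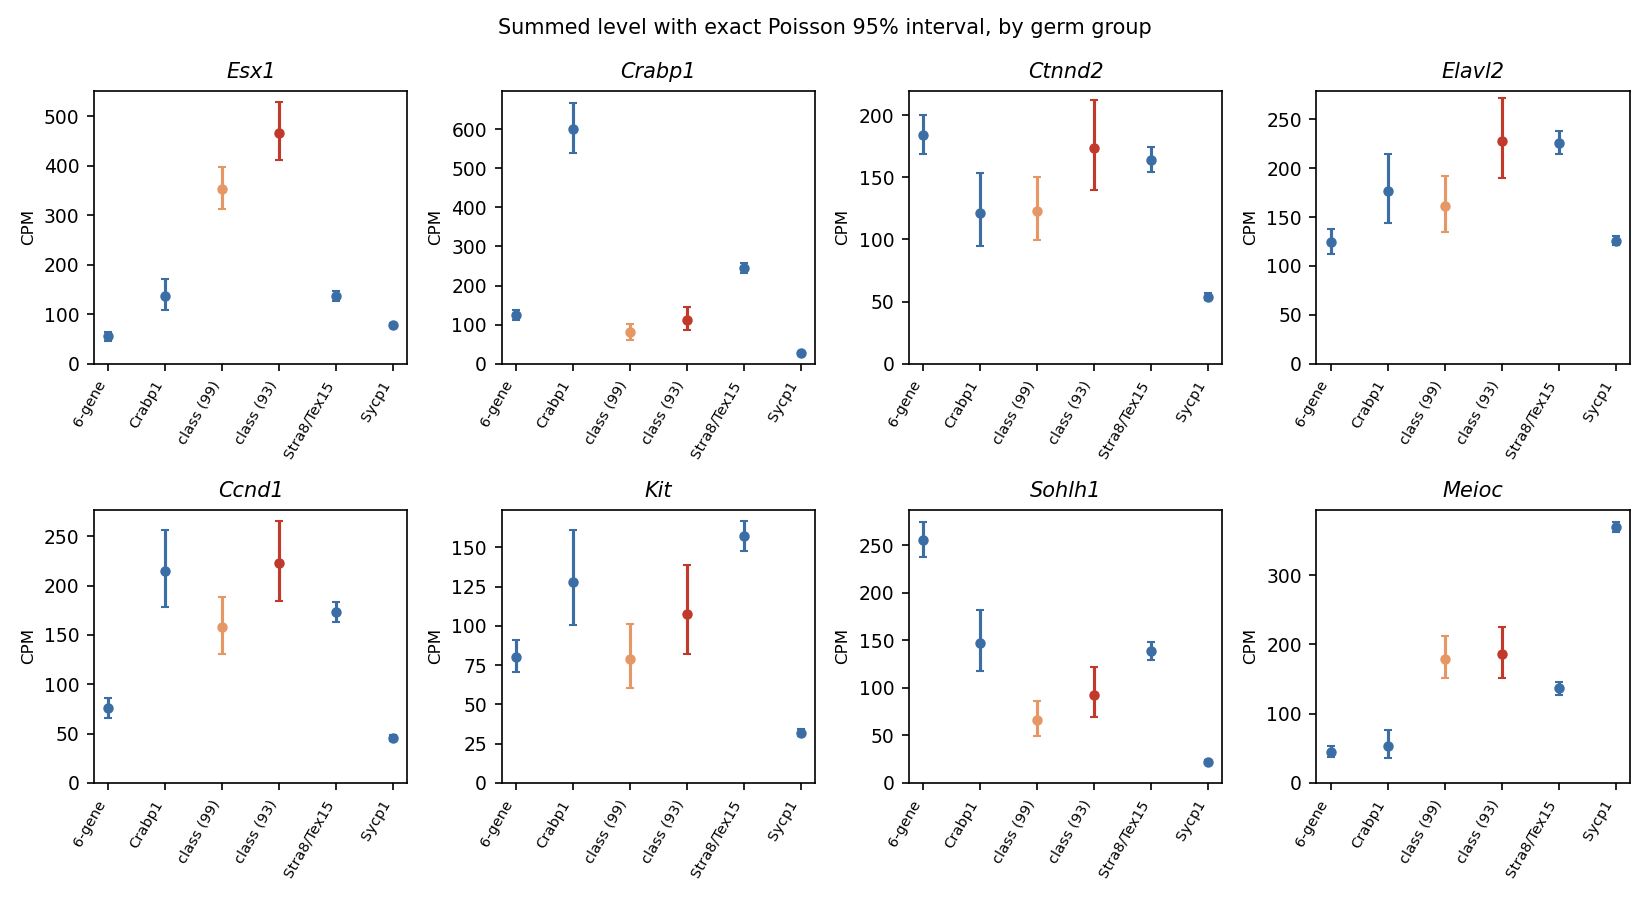
Summed levels (CPM, points) with exact Poisson 95% intervals (bars) of 8 genes in the germ groups, the class shown with all 99 barcodes and with the 93 that lack the pachytene profile. Esx1 and Crabp1 follow from the rule; Ctnnd2 and Elavl2 in the 93 lie near the levels of the Stra8/Tex15 group and Ccnd1 above it, and Meioc at 186 CPM lies above the 53.6 CPM of the Crabp1 group.

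Genes of spermatogonial differentiation as a list were near the levels of the Crabp1 group. Of 25, 17 were measured against it, of which 1 was at least 2-fold higher in the 93 and 2 as much lower (6.7% and 4.83% over all genes), with a median log2 ratio of -0.02. Against the Stra8/Tex15 group 0 of 22 were higher and 4 lower (2.92% and 11.8% over all genes), with a median of -0.50. Kit, the receptor of differentiating spermatogonia, was at 108 CPM in the 93 barcodes (interval 81.9 to 139), 128 CPM in the Crabp1 group, inside that interval, and 157 CPM in the Stra8/Tex15 group. Sohlh1, a helix-loop-helix factor of early differentiation, was at 93 CPM in the 93, against 147 and 139 CPM in these groups and 256 CPM in the 6-gene group. Dmrtb1, a doublesex-related factor that acts at the switch from mitosis to meiosis, was at 34.6 CPM in the 93, against 71 and 49.7 CPM. Over the 99 Dmrtb1 was at 81.4 CPM, and 44 of its 63 UMIs lay in the 6 pachytene-profile barcodes. Dmrt1, a doublesex-related factor that restrains meiotic entry, was at 233 CPM in the 93 and 298 and 263 CPM in the neighbours. Of the 25 genes of the differentiation list, 23 were measured against other germ barcodes, with 20 or more UMIs over both sides, of which 0 were 2-fold or more higher in the 93 and 5 as much lower (8.72% and 12.2% over all genes).

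Of 24 further genes of undifferentiated spermatogonia, 21 were measured against other germ barcodes, of which 1 was at least 2-fold higher in the 93 and 6 as much lower, 2 of these with an interval below 1. Over all genes 8.72% were higher and 12.2% lower, 7.33% with an interval below 1. The measured members summed to 605 CPM in the 93 and 585 CPM in other germ barcodes. The levels of Gfra1 and Zbtb16 follow from the rule, which limits both in the class and selects the 6-gene group for them. Gfra1, the GDNF co-receptor of stem cells, was at 0 UMIs in all 99 barcodes, which with 3 counts as the limit allows up to 3.88 CPM, and at 112 CPM in the 6-gene group. Zbtb16 was at 25.5 CPM in the 93 and 225 CPM in the 6-gene group. Sall4, a zinc-finger factor outside the rule, was at 20.1 CPM in the 93, 124 CPM in the 6-gene group, 34.6 CPM in the Crabp1 group and 46.5 CPM in the Stra8/Tex15 group. Uchl1, a ubiquitin hydrolase of spermatogonia, was at 283 CPM in the 93, below 523 and 507 CPM in the neighbours, and detected in 75.3% of barcodes. Lin28a, an RNA-binding protein that blocks let-7 maturation, was higher, at 148 CPM against 40.1 CPM in all other germ barcodes (3.68-fold, interval 2.90 to 4.60). Against the neighbours it was below the Crabp1 group, at 223 CPM, and above the Stra8/Tex15 group, at 95.1 CPM. Its 81 UMIs in the 93 lay in 18.3% of barcodes, up to 15 in 1 barcode.

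Over all genes, 1544 of 17716 measured (8.72%) were at least 2-fold higher in the 93 barcodes than in the other germ barcodes and 2154 (12.2%) at least 2-fold lower. The interval of the ratio excluded 1 for 692 (3.91%) and 1299 (7.33%) of them. For all 99 the counts were 1562 (8.8%) and 1582 (8.92%) of 17743. Genes at 0 UMIs in the class were set to 3 UMIs, and a call needed the ratio to pass with and without this step. With zeros so set, the median log2 ratio over all genes was 0.19 for the 93 and 0.08 for the 99. Since 3325 of the 5137 other germ barcodes were in the Sycp1 group, this comparison is mostly one with meiotic prophase. The other germ barcodes also kept those with many UMIs of the pachytene list, up to 1570, unlike the 93.

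The genes named by size of ratio in the 93 barcodes included several regulators of transcription. Nutm1, a chromatin regulator of the NUT family, was at 49.2 CPM against 8.05 CPM in other germ barcodes (6.11-fold, interval 3.96 to 9.07) and was detected in 19 of 93 barcodes. E2f2, an E2F factor of the G1/S transition, was at 34.6 against 5.79 CPM (5.99-fold, 3.54 to 9.58). Pou4f1 was at 83.9 against 20.7 CPM (4.06-fold, 2.95 to 5.47), in 28 barcodes. Sox11, an SRY-related factor, was at 58.3 against 14 CPM (4.17-fold), and Lhx2, a LIM homeobox factor, at 40.1 against 10.2 CPM (3.92-fold). Ntrk3, the receptor of neurotrophin-3, and Chrna7, a nicotinic receptor subunit, were 4.79- and 3.91-fold higher. Without barcodes of 10 or more somatic marker UMIs, Ntrk3 was 3.08-fold higher (interval 0.97 to 7.53) and Chrna7 2.10-fold (0.67 to 5.07), both with 5 UMIs and intervals that included 1, while the ratios of the other 5 genes were 3.05 to 10.2 with intervals above 1. No barcode held more than 4 UMIs of any of these 7 genes. Tedc2, Upb1, Hist1h2br and Hist4h4 were 4.10- to 4.53-fold higher at 11 to 23 UMIs in all. The histone genes have close copies, and their counts are uncertain for that reason. Zfp286os, annotated on the strand opposite Zfp286, was 4.21-fold higher at 283 UMIs, of which 1 barcode held 70. No source used here says how the counting treated strand.

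These genes were also higher in the neighbouring groups than in spermatocytes, to different degrees. Sox11 was at 53.6 CPM in the Crabp1 group and Chrna7 at 32.9 CPM, against 58.3 and 36.5 CPM in the 93 barcodes, with overlapping intervals. Nutm1 was at 27.7 CPM in the Crabp1 group, 15.7 in the Stra8/Tex15 group, 16.9 in the 6-gene group and 4.82 in the Sycp1 group. Pou4f1 was at 31.1, 33.9, 18.5 and 18.5 CPM and Lhx2 at 19, 16.1, 22.2 and 7.49 CPM in the same order. For Nutm1 and Pou4f1 the 93 barcodes had the highest value of the 5 groups. The next group for Pou4f1 was the Stra8/Tex15 group, with a ratio of 2.48 (interval 1.76 to 3.42). The next for Nutm1 was the Crabp1 group, whose level interval (15.8 to 45.0) overlapped that of the 93 (32.4 to 71.6).

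**Figure D3:**
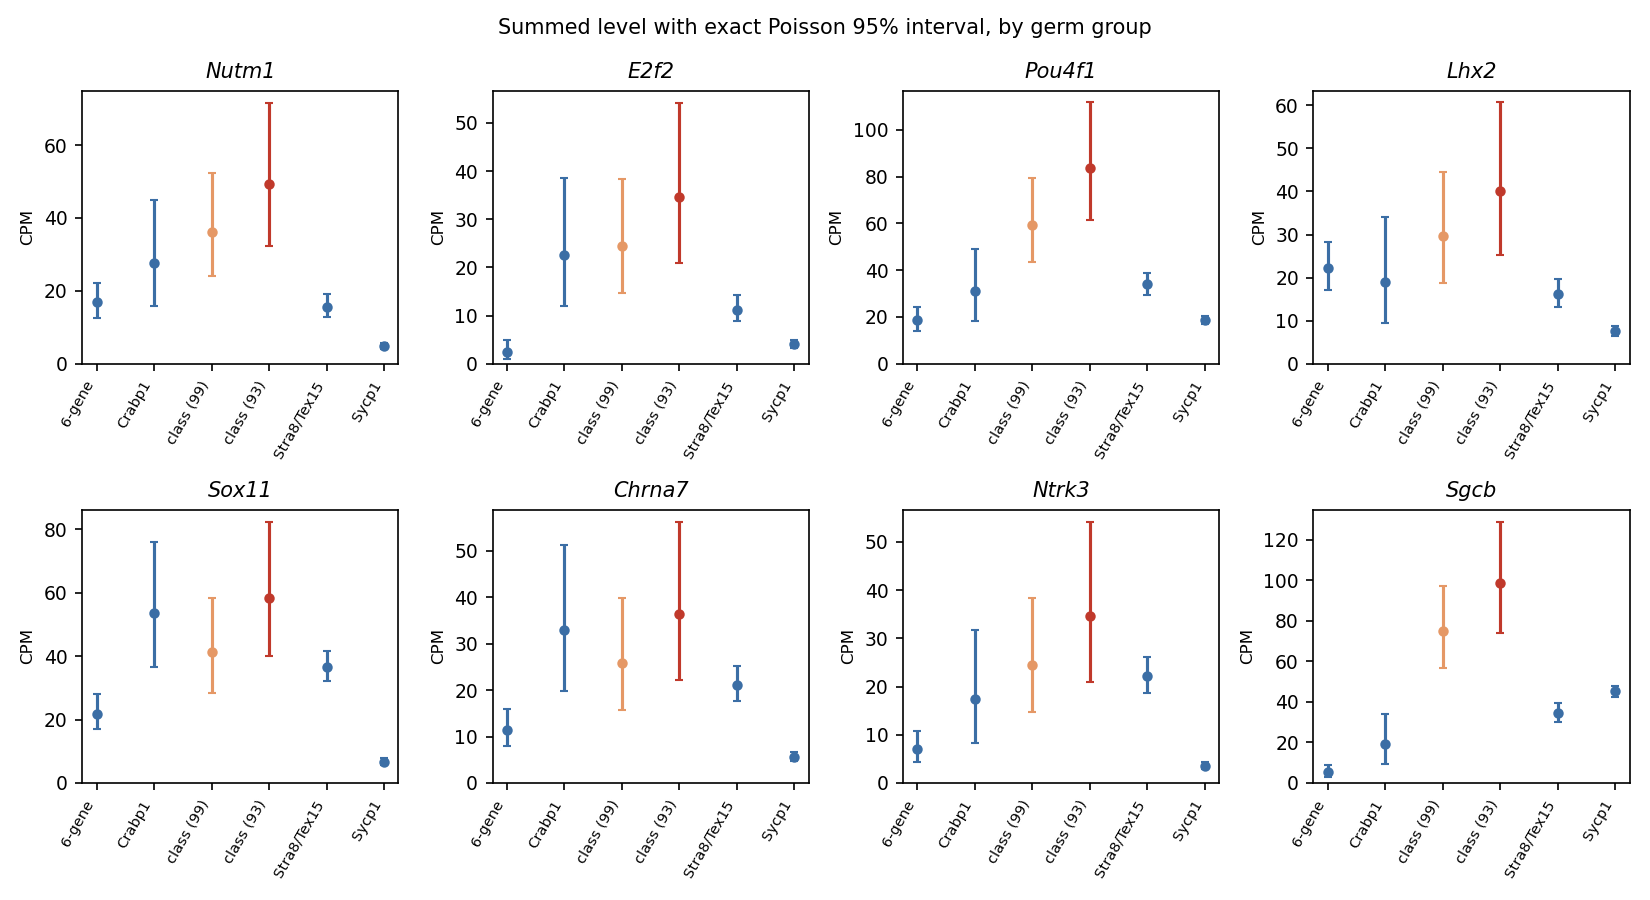
Summed levels (CPM, points) with exact Poisson 95% intervals (bars) of 8 genes in the germ groups. Nutm1, Pou4f1, Lhx2 and Sgcb were highest in the 93 barcodes of the class, at 49.2, 83.9, 40.1 and 98.4 CPM, while Sox11 and Chrna7 lay close to the Crabp1 group.

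With all 99 barcodes, the largest ratios belonged instead to genes of pachytene and later cells. Spink2, an acrosomal protease inhibitor, was at 530 CPM against 89.5 CPM (5.92-fold), but 406 of its 410 UMIs lay in the 6 pachytene-profile barcodes, and its level in the 93 was 7.29 CPM. Slxl1, an X-linked gene of a multicopy family, was 5.32-fold higher with 461 of 468 UMIs in the 6, and 12.8 CPM in the 93. Ggnbp1, Cetn1, Fam229b, Itgae, Catsperz and Rbakdn were 3.22- to 4.08-fold higher in the 99 and below the other germ barcodes in the 93. Nutm1, E2f2 and Ntrk3 were named with both sets.

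Genes lower in the 93 barcodes than in other germ barcodes included several at 0 UMIs. Spata22, required for repair of meiotic breaks, was at 0 UMIs in all 99 barcodes against 23.2 CPM in other germ barcodes, at least 5.98-fold lower with 99 barcodes. Tafa1, St7, Glipr1l2, Wdr31, B3galnt1 and Dnah7c were at 0 UMIs in the 93. The bounds ran from at least 4.27-fold lower for B3galnt1 to at least 19.7-fold lower for Dnah7c, an axonemal dynein heavy chain with close copies. The Y-linked factor Zfy2 had 2 UMIs against 96.9 CPM (ratio 0.0376, interval 0.00455 to 0.136). Dnah7c held 60 UMIs and Zfy2 30 in the 6 pachytene-profile barcodes.

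The comparison with the Crabp1 group differs by both Crabp1 and Esx1, since neither neighbouring group was required to hold Esx1. Of 7697 genes measured, in the 93 barcodes 516 (6.7%) were 2-fold or more higher and 372 (4.83%) 2-fold or more lower. The interval excluded 1 for 418 (5.43%) and 297 (3.86%) of them. In the 99 the 2-fold counts were 1205 (14.1%) and 630 (7.37%) of 8547. Meioc, which with Ythdc2 promotes the passage from mitosis to meiosis, was at 186 CPM (102 UMIs, 57 of 93 barcodes) against 53.6 CPM (3.47-fold, interval 2.30 to 5.36). It was at 136 CPM in the Stra8/Tex15 group and 370 CPM in the Sycp1 group, so its level in the 93 lay above both neighbours and below the Sycp1 group. In the 54 barcodes with under 10 somatic marker UMIs, its ratio to the Stra8/Tex15 group chosen alike was 1.09 (interval 0.818 to 1.43). Sgcb, a sarcoglycan, was at 98.4 against 19 CPM, and Rpl39, an X-linked ribosomal protein gene, at 394 against 119 CPM (3.30-fold). Sycp2 and Prdm9, of the chromosome axis and of break-site choice, were 2.13- and 2.63-fold higher. Sycp3 was at 288 and 282 CPM, with a ratio interval that included 1 (0.815 to 1.28).

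Lower in the 93 barcodes than in the Crabp1 group was Lmo1, a LIM-only cofactor, at 54.7 against 130 CPM (ratio 0.421, interval 0.266 to 0.652). It was spread over barcodes, detected in 26.9% of the 93 and 49.4% of the Crabp1 group. For other genes on this side few barcodes of the Crabp1 group held many of the UMIs. Fgfr2, a fibroblast growth factor receptor, was at 69.3 against 284 CPM (ratio 0.244, interval 0.167 to 0.349), with 44 of the 164 UMIs in 1 barcode. Ptcra, the pre-T-cell receptor alpha chain, was at 36.5 against 178 CPM (0.204, 0.12 to 0.333), with 31 of 103 UMIs in 1 barcode. Slc38a9, a lysosomal amino acid transporter, had 63 of 81 UMIs in 1 barcode. The cadherin Cdh6 had all of its 34 UMIs in 1 barcode of the Crabp1 group, so its ratio of 0.031 describes that barcode.

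Some genes higher than in the Crabp1 group had many of their UMIs in few barcodes or moved with markers of somatic cells. Fos, an immediate early factor, was at 168 against 39.8 CPM (4.21-fold) and Egr1 at 82 against 10.4 CPM (7.90-fold), and 8 of 11 measured genes of a dissociation stress list were at least 2-fold higher (6.7% over all genes). Dlgap1 and Edc4 were 5.64- and 3.80-fold higher, but 62 of 91 and 64 of 83 UMIs lay in 1 barcode. The 7 macrophage markers summed to 204 CPM in the 93, with 51 of the 112 UMIs in 1 barcode, and to 36.3 CPM in the Crabp1 group. The 6 Leydig markers summed to 767 and 529.5 CPM. The 6 markers of interstitial stroma summed to 193 and 104 CPM, the 9 Sertoli markers to 1256 and 1270 CPM, the 6 peritubular myoid markers to 244 and 294 CPM and the 6 endothelial markers to 27.3 and 51.9 CPM. Of all these markers, those at 0 UMIs in the class were Cdh5, Kdr and Emcn of endothelium and Lum of stroma.

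When barcodes with 10 or more UMIs of somatic markers were left out, 54 barcodes of the class remained, none of them pachytene-profile, and 44 of the Crabp1 group. Fos was then at 33 CPM against 2 UMIs or 7.65 CPM (ratio 4.31, interval 0.891 to 41.0), Egr1 at 18.3 against 11.5 CPM, Dlgap1 at 11 against 19.1 CPM, and Edc4 at 43.9 against 42.1 CPM. The dissociation stress list had 0 of 4 measured genes at least 2-fold higher, these being Dnajb1, Hsp90aa1, Junb and Jund. Fos and Egr1 had under 20 UMIs over both sides and were not among the 4, so this count is not comparable with the 8 of 11. Meioc (4.17-fold, interval 2.31 to 8.07), Sgcb (4.47-fold), Rpl39 (2.79-fold) and Fgfr2 (ratio 0.243) kept their direction. Over all genes, 320 (6.32%) were 2-fold or more higher in these 54 barcodes and 210 (4.15%) as much lower. Barcodes with 10 or more somatic marker UMIs are called rich in somatic markers below. The cut is a UMI count, so deeper barcodes reach it more easily, and all 6 pachytene-profile barcodes did. It lies near the median, 9 such UMIs in the 93 and 10 in other germ barcodes, so many barcodes left out were ordinary in this respect.

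Against the Stra8/Tex15 group, 389 of 13334 genes (2.92%) were at least 2-fold higher in the 93 barcodes and 1571 (11.8%) at least 2-fold lower, and the interval excluded 1 for 246 (1.84%) and 635 (4.76%) of them. In the 99 the 2-fold counts were 1270 (9.39%) and 1953 (14.4%) of 13521. The Stra8/Tex15 group kept its barcodes with many UMIs of the pachytene list, up to 1368, unlike the 93. Ncam2, a neural adhesion molecule, was at 36.5 against 13 CPM (2.81-fold, interval 1.63 to 4.62), and Sgcb at 98.4 against 34.4 CPM (2.87-fold, in 38 of 93 barcodes). E2f2 was at 34.6 against 11.2 CPM (3.08-fold), and Zc3hav1, an antiviral zinc-finger protein, at 60.2 against 18.8 CPM (3.19-fold). Cdkn1a, the p53 target p21, was 2.83-fold higher at 16 UMIs. Trf and Igfbp4, 3.20- and 3.87-fold higher, were at 554 and 181 CPM in Leydig-marked barcodes, and without the barcodes rich in somatic markers each had 5 UMIs left in the class.

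The lower side against the Stra8/Tex15 group included Adamts19, Rbpms2, Nol4, Zscan26 and Hecw2, with 1 or 2 UMIs each in the 93 barcodes. Hecw2, with 2 UMIs against 35 CPM, had a ratio of 0.104 (interval 0.0125 to 0.381), and Adamts19, with 1 UMI against 45.6 CPM, of 0.04 (0.00101 to 0.225). Chst11 and Sema5b, of chondroitin sulfation and axon guidance, were at 0, at least 3.01- and 3.47-fold lower. Of these genes, Adamts19 was at 57 CPM in the 6-gene group and 29.4 CPM in the Crabp1 group.

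In a search for genes highest in the class, 1553 of 6943 had their highest level of the 5 groups in the 93 barcodes, and for 227 the interval of the ratio to the next group lay above 1. An even split over the 5 groups would give each 1 gene in 5, so the 1553 alone do not mark the class. The 93 held the fewest UMIs of the 5 groups, and the 841 germ barcodes that met none of the conditions were not compared. Genes with the largest ratios to the next group included Zc3hav1 (2.90-fold over the Crabp1 group, interval 1.46 to 6.16), R3hdm4 (2.46-fold), Pou4f1 (2.48-fold) and Ncam2 (2.39-fold over the Sycp1 group). Zc3hav1, R3hdm4, Pou4f1 and Ncam2 were each detected in 16 to 29 of the 93 barcodes. Without the barcodes rich in somatic markers, the ratios to the Crabp1 group were 3.03 for Zc3hav1 (interval 1.16 to 9.27) and 2.34 for Pou4f1 (1.04 to 5.77). Those for R3hdm4 (1.70, 0.708 to 4.37) and Ncam2 (2.87, 0.87 to 12.2) had intervals that included 1. The ratios to the Stra8/Tex15 group were 3.28 for Zc3hav1 (1.79 to 5.82) and 2.18 for Pou4f1 (1.28 to 3.57). They were 2.20 for R3hdm4 (1.17 to 3.93) and 2.89 for Ncam2 (1.34 to 5.86). The ratio to the Sycp1 group, the next group for Ncam2, was not computed without these barcodes. Wdfy2, 2.70-fold, had 23 of its 42 UMIs in 1 barcode. Igfbp4, Trf, Rnase4, Rasd1 and S100a10, also among the 12 largest, had 2 to 10 UMIs without the barcodes rich in somatic markers.

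Genes of the cell cycle were expressed, at levels that varied strongly between barcodes. The 24 genes of the mitosis list took 2.60 to 130 UMIs per 10000 in single barcodes of the 93, with a median of 32.8 and quartiles of 16.8 and 49.1. The 35 DNA replication genes took 4.45 to 66.9, with a median of 35.5. Medians for the mitosis list were 27.7 in the Crabp1 group, 34.2 in the Stra8/Tex15 group and 44 in the Sycp1 group, and for replication 40.3, 35.6 and 24.3. For mitosis the median of the class lay between those of its neighbours, and for replication at that of the Stra8/Tex15 group and below that of the Crabp1 group.

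Few replication genes were 2-fold apart from other germ barcodes. Of 35 measured, 4 were at least 2-fold higher in the 93, a share near the 8.72% of all genes, and 0 lower (12.2% of all genes). The 4 were Tk1 (3.09-fold), Tyms (3.06-fold), Rfc5 and Mcm2. In the 99, 2 were higher. The median log2 ratio of the list was 0.49, against 0.19 over all genes. Of 32 cyclin, CDK and E2F/RB genes, 6 were at least 2-fold higher and 3 lower in the 93, among the higher Ccna2 (164 against 62.6 CPM), Ccnd1, E2f2 and the locus of p16 and p19ARF, Cdkn2a (283 against 139 CPM). Lower were Ccnb3 (10.9 against 92.1 CPM), Cdkn1c and Ccnd2. Ccnd2, the D-type cyclin of early differentiation, was at 21.9 CPM and at 284 CPM in the 6-gene group, the reverse of Ccnd1. The mitotic kinase Aurkb was 2.36-fold higher, while Mki67 (235 and 233 CPM) and Top2a (541 and 573 CPM) had ratio intervals that included 1.

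**Figure D4:**
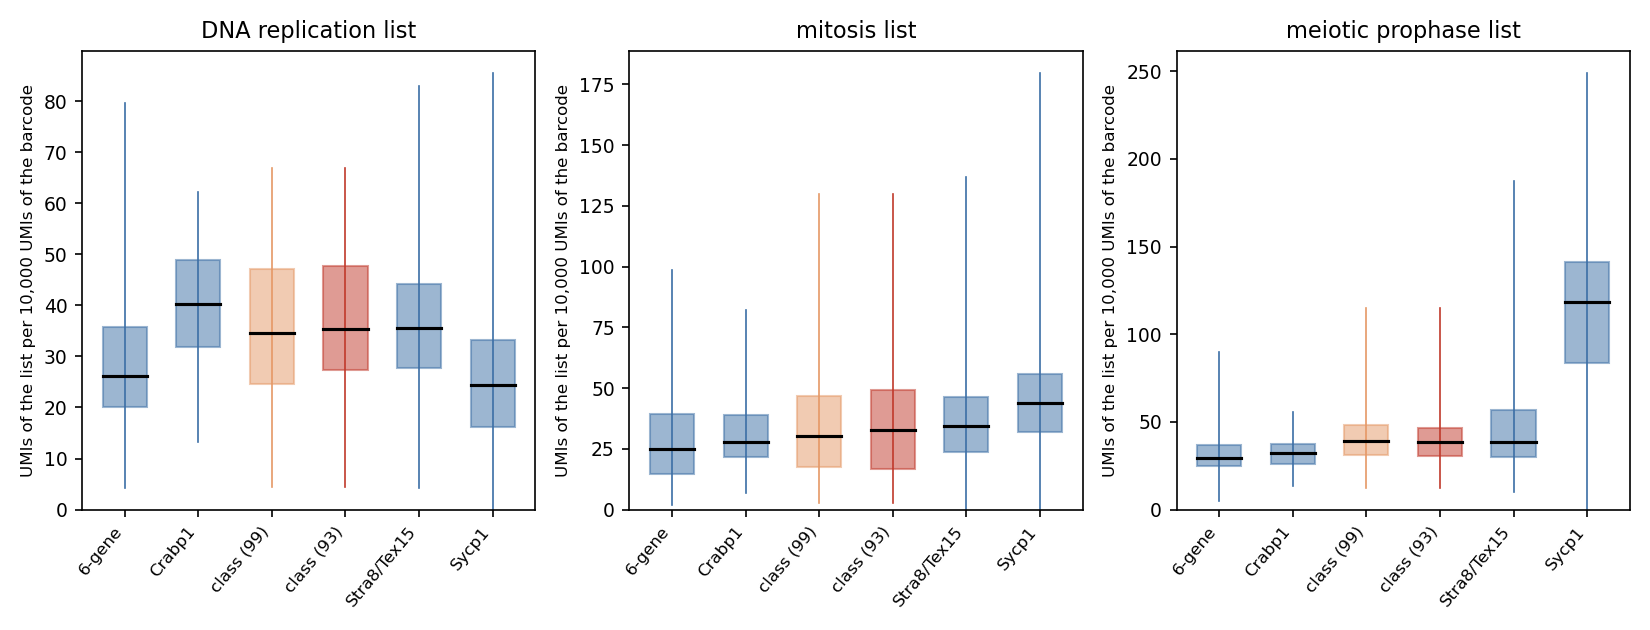
UMIs of 3 gene lists per 10000 UMIs of each barcode in the germ groups, with the median (black line), the quartiles (box) and the lowest and highest barcode (line). For mitosis the 93 barcodes ranged from 2.60 to 130 with a median of 32.8, and their meiotic prophase median of 38.6 lay far below the 118 of the Sycp1 group.

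Genes of meiotic prophase were well below the other germ barcodes and near the neighbouring groups. Of 40 measured, 22 were at least 2-fold lower than in other germ barcodes and 0 higher in the 93 (12.2% and 8.72% over all genes), with a median log2 ratio of -1.18, and 17 were lower in the 99 (median -0.81). Sycp3 was at 288 against 1578 CPM (ratio 0.182, interval 0.155 to 0.213) and Hormad1, an axis protein, at 102 against 572 CPM. Meiob, a partner of SPATA22, was at 12.8 against 143 CPM. Against the Crabp1 group, 4 of 27 were at least 2-fold higher and 1 lower, and against the Stra8/Tex15 group 0 of 40 were higher and 6 lower, including the helicase gene Hfm1 (ratio 0.316). Over all genes 6.7% were higher and 4.83% lower against the Crabp1 group, and 2.92% and 11.8% against the Stra8/Tex15 group. Rec8, a meiotic cohesin subunit, had 12 UMIs in the 93 (21.9 CPM) and 0 in the Crabp1 group, which with 3 counts as the limit allows up to 5.19 CPM. It was at 15.8 CPM in the Stra8/Tex15 group.

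The pachytene and piRNA lists depended on the 6 barcodes. Of 20 pachytene genes, 16 were at least 2-fold lower and 0 higher in the 93 (median log2 ratio -2.78 with zeros set to 3 UMIs), and 2 were lower and 8 higher in the 99 (median 0.70). The 93 were set apart by under 100 UMIs of this same list. Its shift from the 99 to the 93 thus follows from the split and is no separate result. Ldhc was at 69.3 CPM in the 93, 1751 CPM in the 99 and 5843 CPM in the 6. Of 19 piRNA pathway genes, 9 were at least 2-fold lower in the 93 and 4 in the 99. Over all genes, 12.2% were lower and 8.72% higher in the 93, and 8.92% lower and 8.8% higher in the 99. Piwil1, the PIWI protein of pachytene piRNAs, was at 9.12 against 120 CPM in the 93. Of 9 spermatid markers, 7 were at 0 UMIs in the 99 barcodes, among them Prm1, Prm2, Tnp1 and Tnp2. Spaca1 had 17 UMIs in the 99 (21.97 CPM, against 6.33 CPM in the Stra8/Tex15 group) and 3 in the 93 (5.47 CPM), and Izumo1 had 1 UMI in the 99 and 0 in the 93.

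**Figure D5:**
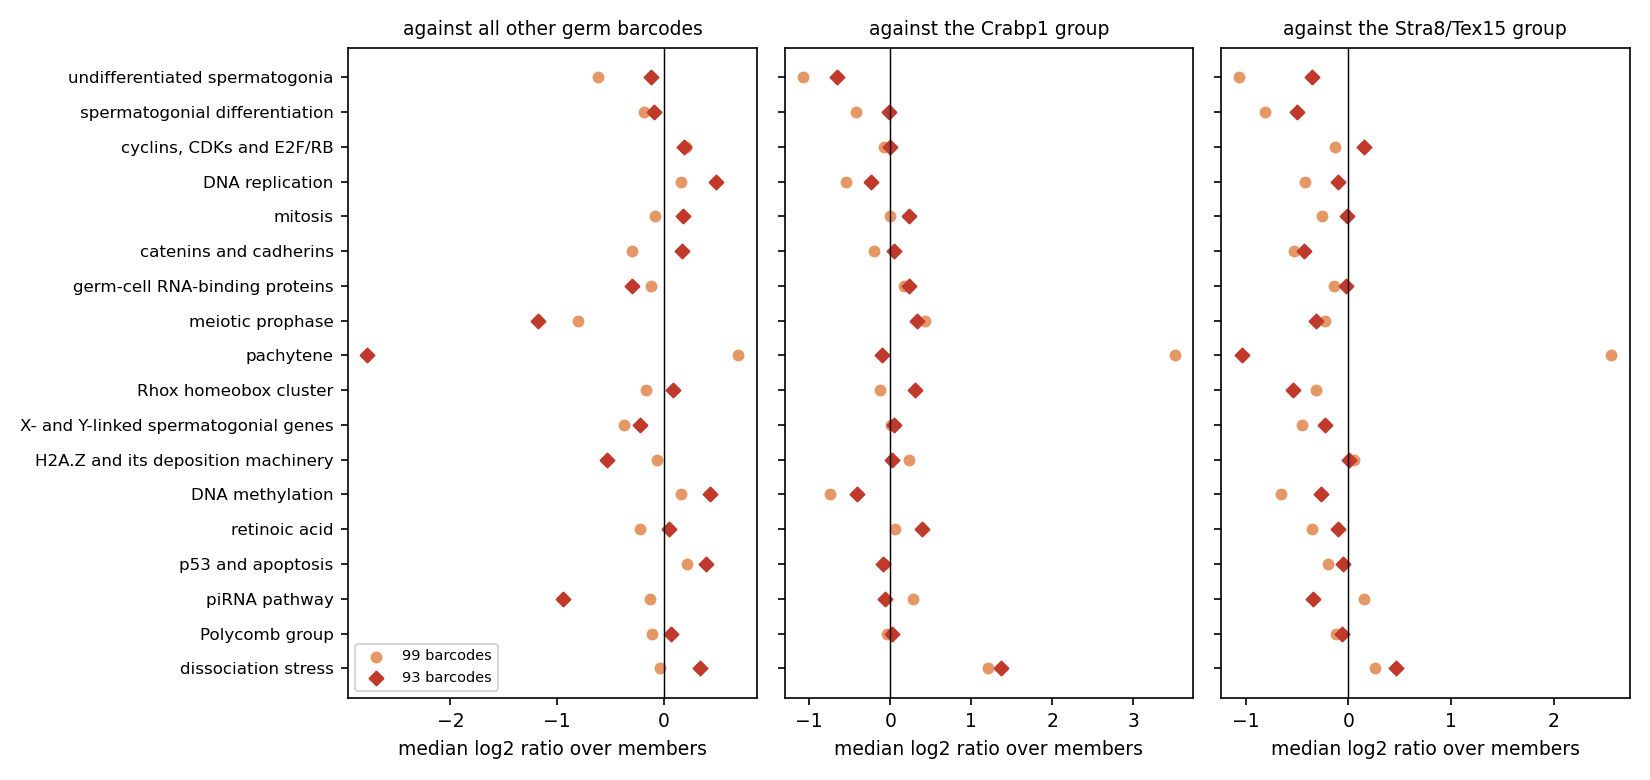
Median log2 ratio over the measured members of 18 gene lists, with members at 0 UMIs set to 3 UMIs, for all 99 barcodes (circles) and the 93 without the pachytene profile (diamonds), against 3 comparators. The pachytene list, by which the 6 were set apart, moved from 0.70 to -2.78 against other germ barcodes once they were left out. Most lists lay near 0 against the Crabp1 and Stra8/Tex15 groups.

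The targeted gene and the H2A.Z machinery were measured in the same barcodes. Znhit1 had 2 UMIs in the 99 barcodes (2.58 CPM) and 4 CPM in other germ barcodes, against 18.1 CPM in Leydig-marked barcodes. A 3' tag outside the deleted part would be counted in deleted cells, and the labels do not say which part is deleted, so these levels check nothing. H2afz was at 837 CPM in the 93, above 647 CPM in the Crabp1 group and 693 CPM in the Stra8/Tex15 group and below 1314 CPM in other germ barcodes. H2afv, the second H2A.Z gene, was at 769 CPM in the 93 and 631 CPM in other germ barcodes. Anp32e, the chaperone that removes H2A.Z, was at 115 CPM, 3.02-fold above the Crabp1 group (interval 1.83 to 5.15) and 1.37-fold above the Stra8/Tex15 group. Of 20 measured members, 2 were at least 2-fold lower than in other germ barcodes, Ruvbl2 (31 against 75.6 CPM) and Mbtd1 (118 against 250 CPM), and 0 higher, so that neither share was above that of all genes (12.2% lower and 8.72% higher).

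Other chromatin genes were compared in the same way. Dnmt1, the maintenance DNA methyltransferase, was at 197 CPM in the 93 and 118 CPM in other germ barcodes, and at 242 and 248 CPM in the neighbours. Dnmt3b was at 49.2 CPM, against 77.9 and 83.6 CPM in the neighbours. Of 29 Polycomb genes, 5 were at least 2-fold higher in the 93 than in other germ barcodes, among them Cbx8 (3.23-fold), Cbx2 (3.05-fold) and Pcgf2, and 4 lower, including Pcgf6 (9.12 against 85 CPM). Over all genes 8.72% were higher and 12.2% lower.

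Genes on the X chromosome took 2.34% of the UMIs of the 93 barcodes (interval 2.30 to 2.38) and 2.29% without Esx1. The share was 2.01% in the 99 and 1.21% in the 6 pachytene-profile barcodes. It was 2.23% in the Stra8/Tex15 group, 2.12% in the 6-gene group, 1.98% in the Crabp1 group and 1.85% in the Sycp1 group. Somatic barcodes had higher shares, 2.98% in Leydig-marked and 4.73% in macrophage-marked barcodes, and the part of their RNA in the share of the class was not tested. In the 54 barcodes with few somatic marker UMIs the share was 2.24%.

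The 93 barcodes were also split by their counts of the rule's genes. The 49 barcodes with 2 Esx1 UMIs and the 44 with more had Ctnnd2 at 183 and 164 CPM, Elavl2 at 264 and 195 CPM and Ccnd1 at 241 and 206 CPM, with overlapping intervals. The replication list summed to 3987 CPM (interval 3749 to 4236) in the first and 3258 CPM (3053 to 3474) in the second. These intervals did not overlap, but they cover counting error only and leave out the spread between barcodes. In the second, the barcodes with 40 or more somatic marker UMIs held 152, 98, 90, 69, 48, 41 and 40. They took 13.7, 37.3, 8.24, 18.5, 19.5, 20.4 and 43.7 replication UMIs per 10000 in that order, against a median of 35.5 in the 93. In the first, such barcodes held 116 and 61 and took 10.4 and 12.1. The part of somatic RNA in this difference was not tested. The 45 barcodes with no Crabp1 UMI were shallower than the 48 with 1 or 2, at medians of 4576 and 6210.5 UMIs, and had Kit at 80.6 and 128 CPM with overlapping intervals. Of the 40 Kit UMIs of the 48, 7 lay in 1 barcode with 107 Leydig marker UMIs. The 34 barcodes with 0 or 1 UMI of Stra8 and Tex15 had a median of 4240 UMIs and the 59 with 2 or 3 a median of 6211. Sohlh1 was at 53.1 and 108 CPM in them and Rec8 at 1 and 11 UMIs, again with overlapping intervals, and the part of depth in these splits was not tested.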

How the data were processed

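The deposited matrix holds the authors' UMI counts of each gene in each barcode. They come from Cell Ranger 7.1.0 per the file headers and from STAR on mm10 per the submitters' processing notes. The counts are whole numbers, not normalised, and each counts 1 molecule at its 3' end, so no length scaling was made. The criterion by which barcodes were kept as cells is not given here by any source. Of 32285 genes, 32235 matched the GENCODE vM21 annotation of mm10. Counts were summed over the barcodes of a group and scaled to CPM. Levels have exact Poisson intervals, ratios exact conditional binomial intervals and shares Clopper-Pearson intervals, all at 95%. Ratios needed 20 UMIs over both sides. A count of 0 was set to 3. The ratio step was tested on simulated data. Doublets called by Scrublet in scanpy 1.11.5 (265 of 8121 barcodes) were kept, and their removal was an alternative. Free RNA was not subtracted. Values were computed in Python 3.11.15 with scipy 1.17.1, pandas 2.3.3 and numpy 2.4.6, and drawn with matplotlib 3.10.9.

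The members and gene lists were chosen with earlier results of these data known. Genes were named by rule. For each comparison the rule took the largest ratios each way, 12 against other germ barcodes and 8 against each neighbouring group. These needed 100 UMIs over both sides and detection in 10% of barcodes of the higher side. It also took the 12 highest in the class by ratio to the next group, with detection in 10% of barcodes. There the class and the next group could hold under 100 UMIs together, as for Zc3hav1 with 33 and 12 and R3hdm4 with 35 and 15. In each list it took the 3 largest upward and 2 largest downward ratios of 1.5-fold or more, and the member with the highest CPM. Other genes named from lists, among them Rec8, Dnmt1, Uchl1, Mki67 and Sohlh1, were chosen after their values were seen. Leaving out the pachytene-profile barcodes was also chosen after seeing the data. Some genes that the rule took are left undescribed. A gene that the naming rule selected is not reported here.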

Additional observations from a re-analysis of the deposited data

How the results depend on the processing

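With all 99 barcodes as the base, 68 alternative values of the main results moved by less than counting error or, for counts of genes, by less than 1.5 times, and 47 moved by more. The class held 47 barcodes with Esx1 at 3 UMIs or more, 51 with Crabp1 at 0, 53 at depths of 5000 to 20000 UMIs, and 54 without those of 10 or more somatic marker UMIs. The X-linked share was 1.95% without called doublets, 2.28% with Esx1 at 3 or more, 1.83% with Crabp1 at 0, 2.29% with equal weight for each barcode, 2.31% at the limited depths, 2.24% without somatic-marked barcodes and 2.34% without the pachytene-profile barcodes. The ratio to other germ barcodes was 1.10 for Ctnnd2, 0.978 for Elavl2 and 1.41 for Ccnd1 with Crabp1 at 0, where the 6 pachytene-profile barcodes weigh more, and 2.21, 1.45 and 2.67 with equal weights. At the limited depths Elavl2 was at 1.66 and Ccnd1 at 2.54. Without somatic-marked barcodes Ctnnd2 was at 2.52, Elavl2 at 1.26 and Ccnd1 at 2.95, and with these left out of the comparator alone Elavl2 was at 0.87. Without the pachytene-profile barcodes the ratios were 2.11, 1.66 and 2.94. The last 2 of these settings were chosen after seeing the data.

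Counts of genes at least 2-fold apart moved with the gene minimum and the barcodes kept. Against other germ barcodes 785 were higher at 100 UMIs per gene, and 2462 lower with equal weights. Against the Crabp1 group the count of higher genes was 800 with Esx1 at 3 or more, 465 at the limited depths, 320 without somatic-marked barcodes, 307 at 100 UMIs and 2328 at 1 UMI per gene, and 516 without the pachytene-profile barcodes. That of lower genes was 1804 with Crabp1 at 0, 367, 210, 80, 1908 and 372 under the other 5. Against the Stra8/Tex15 group the count of higher genes was 824 with equal weights, 492, 245, 493, 3046 and 389 under the same 5, and that of lower genes 1050 without somatic-marked barcodes and 851 at 100 UMIs.

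Ratios that reversed were Hist4h4 (0.394) and Ntrk3 (0.569) with Crabp1 at 0. At the limited depths, which leave out the deep pachytene-profile barcodes, Catsperz was at 0.245, Cetn1 0.308, Fam229b 0.356, Ggnbp1 0.363, Itgae 0.68, Rbakdn 0.0843, Slxl1 0.063 and Spink2 0.181. Without somatic-marked barcodes Catsperz was at 0.476, Cetn1 0.43, Fam229b 0.344, Rbakdn 0.237, Slxl1 0.259 and Spink2 0.117. Without the pachytene-profile barcodes Catsperz was at 0.135, Cetn1 0.102, Fam229b 0.166, Ggnbp1 0.317, Itgae 0.554, Rbakdn 0.0658, Slxl1 0.112 and Spink2 0.0814. Apart from these constructions the cause was not tested. No paired analysis was possible because 1 library was analysed and no result came from a test. Depth limits genes under 20 UMIs, and single barcodes to the presence of abundant RNAs.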
